A study of Mus musculus with 27 samples.

Results

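The RNA described here came from retinal cells that did not bind to antibody-coated beads, at postnatal day 3 (P3) and at embryonic day 15 (E15). It comprises 6 of the 27 libraries of a study of Brn3 transcription factors in mouse retinal ganglion cells, namely the 4 supernatant libraries of P3 and the 2 of E15, chosen by their labels. All mice were C57Bl/6 and carried 1 allele with alkaline phosphatase (AP) at the Brn3a (Pou4f1) or Brn3b (Pou4f2) locus. Dissociated retinas were incubated with magnetic beads coupled to an antibody against AP, so AP-positive cells were held by the beads and the remaining suspension, called unbound here, was lysed separately.

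At P3 there was 1 unbound library each from Brn3a AP/WT, Brn3a AP/KO, Brn3b AP/WT and Brn3b AP/KO retinas, where WT is an intact and KO a null second allele. At E15 there was 1 library each from Brn3b AP/WT and Brn3b AP/KO retinas, and no Brn3a library. Genotypes were pooled within a stage, so every stage difference compares 4 libraries of mixed genotype with 2 Brn3b libraries, and no genotype has a replicate within a stage. The number of animals per library is not given in the sources used here, and the p-values measure only the spread between these libraries, which may be in part technical. The source names of the Brn3b and E15 libraries repeat the Brn3a name and the age P3, and the E15 Brn3b AP/WT library is replicate 2 in its title but replicate 3 in its source name. The titles match the genotype and age entries, and these were used.

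The mouse retina makes its cell classes in an overlapping order from 1 pool of dividing progenitors. Ganglion cells, horizontal cells, cones and early amacrine cells are born mainly before birth, while most rods, bipolar cells and Mueller glia are born around and after it. Progenitors change over the same period from an early state, marked by genes such as Sfrp2 and Fgf15, to a late state marked by nuclear factor I proteins. Every unbound suspension and every bead-held, AP-positive fraction is a mixture. Fewer cells of a type and less RNA per cell therefore cannot be told apart in any value below.

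Promoters of rod and mitosis genes, from lists with many called members, are shown first. Each is the 250 bases before an annotated gene start in RefSeq (GRCm38.p6), 5′ to 3′ on the strand of the gene. The rod genes are the first 4 by fitted fold among called rod phototransduction genes with a RefSeq promoter entry. The fitted folds of Cnga1 and Slc24a1, which had no count at E15, depend on the prior count, so the order does not rank them. Capitals mark TAATCC, a site bound by the homeodomain factors Otx2 and Crx, or TGCTGA, the core of the site of the rod factor Nrl, on either strand. The windows are Cnga1 (chr5:72642753-72643002, minus strand), Pde6b (chr5:108388123-108388372, plus strand), Cngb1 (chr8:95306586-95306835, minus strand) and Slc24a1 (chr9:64951621-64951870, minus strand), which holds neither.
Cnga1: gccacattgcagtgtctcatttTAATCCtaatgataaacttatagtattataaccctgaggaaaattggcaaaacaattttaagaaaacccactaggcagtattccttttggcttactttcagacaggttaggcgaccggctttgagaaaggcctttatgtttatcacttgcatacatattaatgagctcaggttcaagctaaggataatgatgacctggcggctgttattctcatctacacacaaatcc
Pde6b: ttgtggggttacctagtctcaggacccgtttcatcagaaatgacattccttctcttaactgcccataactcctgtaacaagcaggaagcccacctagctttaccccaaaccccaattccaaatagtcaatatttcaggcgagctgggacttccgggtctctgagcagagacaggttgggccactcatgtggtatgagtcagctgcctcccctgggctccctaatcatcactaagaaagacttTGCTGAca
Cngb1: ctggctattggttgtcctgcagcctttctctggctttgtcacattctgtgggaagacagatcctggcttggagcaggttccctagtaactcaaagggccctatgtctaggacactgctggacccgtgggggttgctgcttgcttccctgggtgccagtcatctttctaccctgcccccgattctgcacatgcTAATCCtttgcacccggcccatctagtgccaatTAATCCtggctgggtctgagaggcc
Slc24a1: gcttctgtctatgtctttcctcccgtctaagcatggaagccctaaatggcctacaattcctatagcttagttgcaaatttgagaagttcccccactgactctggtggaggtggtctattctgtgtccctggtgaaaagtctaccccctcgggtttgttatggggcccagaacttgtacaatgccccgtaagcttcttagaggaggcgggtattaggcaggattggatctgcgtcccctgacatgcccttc
Both mitosis genes below were chosen after their sequences were seen. They are the 2 called members with the largest fold that hold TTTGAA, known as the cell cycle homology region, in these 250 bases. Windows of a gene without TTTGAA were passed over, so the choice itself fixed the presence of this motif. Capitals mark it where it lies on the opposite strand. The windows are Kif2c (chr4:117178773-117179022, minus strand) and Ube2c (chr2:164769679-164769928, plus strand). The Kif2c window lies inside the span of the gene in the deposited annotation (chr4:117159639-117182639), so it is not upstream of the whole gene.
Kif2c: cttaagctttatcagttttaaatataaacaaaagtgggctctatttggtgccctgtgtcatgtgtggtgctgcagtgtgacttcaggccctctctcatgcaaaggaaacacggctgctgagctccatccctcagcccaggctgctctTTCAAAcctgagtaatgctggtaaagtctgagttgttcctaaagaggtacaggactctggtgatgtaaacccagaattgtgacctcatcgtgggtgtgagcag
Ube2c: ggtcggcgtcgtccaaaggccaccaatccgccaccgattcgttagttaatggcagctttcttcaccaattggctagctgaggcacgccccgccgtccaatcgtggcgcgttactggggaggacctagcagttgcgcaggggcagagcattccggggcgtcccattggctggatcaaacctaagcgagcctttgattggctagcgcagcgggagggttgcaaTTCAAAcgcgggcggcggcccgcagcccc
Shares were counted over windows of 300 bases, which add 50 bases after the start. TAATCC was in 8 of 14 rod phototransduction windows (57.1%) against 7.06% of all 32851 windows, and TGCTGA in 4 of 14 (28.6%) against 19.5%. TTTGAA was in 23 of 31 mitosis windows (74.2%) and in 10.8% of DNA replication windows, against 17.9% of all. The E2F motif (TTCGCGC or TTGGCGC, which do not overlap the other motifs) was in 12 of 37 DNA replication windows (32.4%) and in 3.89% of all. A match describes the letters in the window and was not tested for binding.

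The unbound libraries held 31694778 to 37394655 estimated counts, and the 4 P3 libraries resembled each other most. Pearson's r of log2 CPM (counts scaled to the same library size) across 15516 genes, which are not independent replicates, was 0.980 to 0.989 within P3, 0.9747 between the E15 libraries and 0.913 to 0.946 between stages. Mitochondrial genes took 1.663% to 2.412% of counts at P3, 2.559% in the E15 Brn3b AP/KO library and 3.77% in the E15 Brn3b AP/WT library. That E15 pair stood further apart than any P3 pair, with 4.86% of genes 2-fold apart against 1.43% to 2.77%.

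The targeted genes were read first in every library. All values per library are CPM on scaled library sizes, in the order Brn3a AP/WT, Brn3a AP/KO, Brn3b AP/WT and Brn3b AP/KO at P3, then Brn3b AP/WT and Brn3b AP/KO at E15. Pou4f1 was at 9.54, 1.67, 66.5 and 44.0 CPM at P3 and at 109 and 76.4 CPM at E15. Pou4f2 was at 9.60, 10.6, 13.3 and 6.77 CPM at P3 and at 53.5 and 23.2 CPM at E15. The AP/KO library lay below the AP/WT library of the same locus and stage for the targeted gene in all 3 pairs, and Pou4f1 was lowest in both Brn3a libraries. Pou4f2 was 3.81-fold lower at P3 (adjusted p = 0.00494), with no overlap between stages. Pou4f1 did not pass the test (adjusted p = 0.256), and its P3 values spread with the locus. With the Brn3b libraries only its log2 difference was -0.74 (adjusted p = 0.111), and with an allele term added it was called lower at -0.75 (adjusted p = 0.0478). Pou4f3, the third family member, was at 2.79 to 6.11 CPM at P3 and at 3.80 and 3.88 CPM at E15.

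The unbound suspension held some Brn3 RNA, and its level beside the AP-positive fraction differed by gene and stage. On a common scale for the 12 Brn3b libraries, Pou4f2 was at 190 and 289 CPM in the AP-positive P3 libraries of Brn3b AP/WT and at 13 CPM in the unbound one. At E15 the same genotype had 324 and 224 CPM in AP-positive libraries and 53.7 CPM unbound. Pou4f1 in Brn3b AP/WT was at 171 and 251 CPM AP-positive and 65.1 CPM unbound at P3. At E15 it was at 233 and 82.2 CPM AP-positive and 109 CPM unbound. In Brn3b AP/KO at E15, unbound Pou4f1, at 75.1 CPM, lay above both AP-positive libraries, at 73.3 and 35.5 CPM. Pou4f3 at E15 was at 3.81 CPM in each unbound library and at 0.349 to 3.23 CPM in AP-positive ones.

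Of 15516 genes tested, 2647 (17.1%) were higher and 2301 (14.8%) lower at P3, together 31.9%, at an adjusted p under 0.05 with no minimum fold (edgeR's quasi-likelihood test, Benjamini-Hochberg adjustment). All P3 libraries lay above both E15 libraries for 27.0% of genes and below both for 25.7%. At least a 2-fold difference was found in 1458 of the called higher genes and 806 of the called lower genes, and at least 4-fold in 689 and 233. The median log2 difference over all genes was 0.02. Of the 4948 called genes, 4934 had the same direction within Brn3b AP/WT and within Brn3b AP/KO. These libraries were part of the fit and the stages overlapped for only 20 called genes. The shared direction was therefore largely set in advance and is not separate support. Without the E15 Brn3b AP/WT library the test called 1735 genes higher and 1275 lower.

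**Figure D1:**
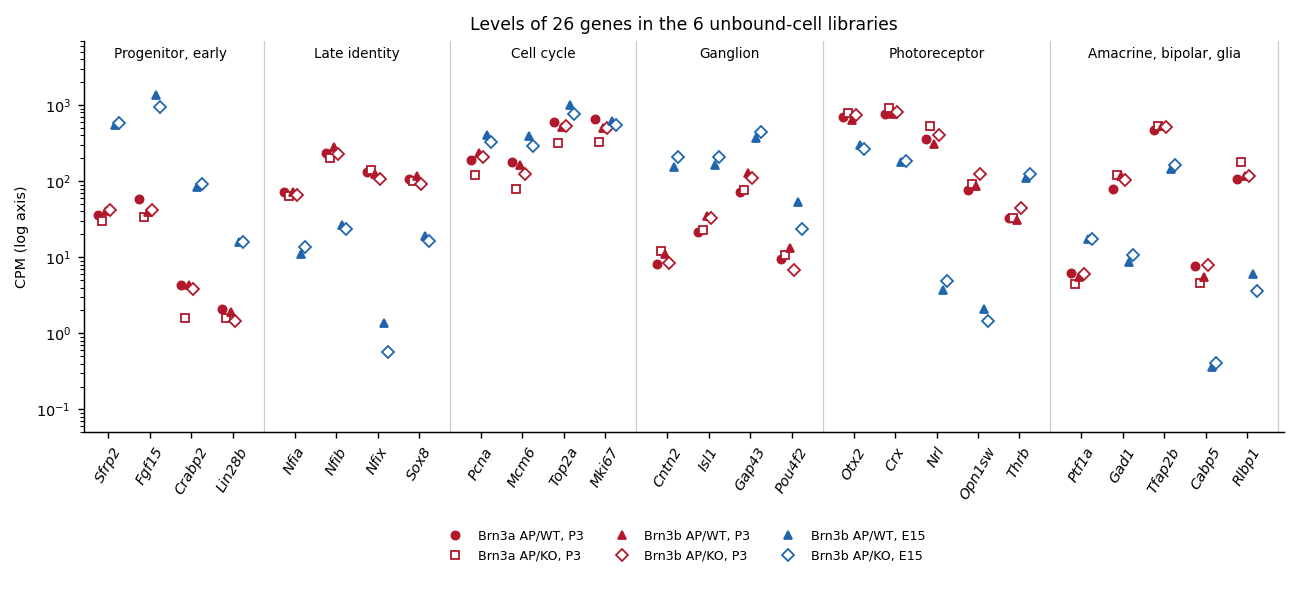
CPM of 26 genes (log axis) in each unbound library, red for the 4 P3 and blue for the 2 E15 libraries, with symbols for locus and filling for AP/WT or AP/KO. Sfrp2 lies at 30.2 to 41.6 CPM at P3 and at 548 and 581 CPM at E15, Nrl at 312 to 533 CPM against 3.72 and 4.86 CPM, and the stages overlap for Mki67.

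Many early progenitor genes fell and many late ones rose between the stages. Sfrp2, a secreted Wnt antagonist, was at 36.0, 30.2, 40.2 and 41.6 CPM at P3 and at 548 and 581 CPM at E15. Fgf15, a growth factor of early progenitors, was at 57.5, 33.8, 39.1 and 41.4 CPM at P3 and at 1336 and 947 CPM at E15. The 2 stages were far apart for both genes, which were 15.3-fold (log2 -3.93, SE 0.14, adjusted p = 1.36e-05) and 26.6-fold lower at P3 (log2 -4.73, SE 0.22, adjusted p = 4.09e-05). Of 20 early temporal identity genes tested, 11 fell and 1 rose, with a median log2 difference of -1.32. The RNA-binding proteins of the fetal Lin28 and Igf2bp families were among them: Lin28b fell 9.13-fold, Igf2bp3 4.08-fold and Igf2bp2 3.56-fold. Crabp2, which carries retinoic acid, was at 1.58 to 4.36 CPM at P3 and at 83.0 and 93.1 CPM at E15. Trim71, an RNA-binding ubiquitin ligase, fell 6.04-fold, and Hmga2, a chromatin architectural protein, 4.51-fold. The member that rose was Dlk1, a Notch pathway ligand-like protein, at 1.55 to 3.00 CPM against 0.139 and 0.632 CPM. That call was lost without the P3 Brn3a AP/WT, the P3 Brn3b AP/WT or the E15 Brn3b AP/WT library.

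Of 20 late temporal identity genes, 13 rose and 2 fell, with a median log2 difference of 1.35. Nfix, a nuclear factor I protein, was at 131, 138, 125 and 106 CPM at P3 and at 1.39 and 0.575 CPM at E15, a 127-fold difference (log2 6.99, SE 0.35, adjusted p = 4.09e-05). Its relatives rose too, Nfib 9.43-fold, Nfia 5.54-fold and Nfic 8.65-fold. The stages did not overlap for any of the 4. Sox8, a transcription factor of late progenitors and glia, rose 5.91-fold, and Crym, a thyroid hormone-binding protein, 7.69-fold. Casz1, a temporal factor of mid and late progenitors, rose 2.55-fold. The members that fell were Id1, an inhibitor of helix-loop-helix factors, by 6.19-fold and Ebf1 by 2.13-fold. With the E15 Brn3b AP/KO library left out 4 members were called lower.

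Of 20 general progenitor factors tested, 11 fell and 2 rose, with a median log2 difference of -0.50. Sox2, which maintains progenitors, was at 81.5, 71.5, 131 and 98.5 CPM at P3 and at 215 and 166 CPM at E15. Pax6, the eye master regulator, was at 512 to 644 CPM at P3 and at 781 and 868 CPM at E15. Both fell, Sox2 2.00-fold and Pax6 1.46-fold, with P3 below E15 in every library. Lhx2 overlapped between stages at 149 to 184 CPM against 175 and 163 CPM. Notch1 and Sox9 were the 2 members that rose, Notch1 from 255 and 387 CPM at E15 to 631 to 748 CPM at P3. Without the E15 Brn3b AP/WT library 7 members were called lower, and without the E15 Brn3b AP/KO library 4 were called higher.

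Of 26 neurogenic factors tested, 9 rose and 8 fell, with a median log2 difference of 0.20. Atoh7, required for ganglion cell fate, was at 0.238, 0.0911, 0.249 and 0.527 CPM at P3 and at 3.33 and 13.7 CPM at E15. It was 30.2-fold lower at P3 (log2 -4.92, SE 0.70, adjusted p = 0.00194), and within the Brn3b locus the AP/KO library was the higher at both stages. Onecut1, of horizontal cell and cone precursors, fell 5.93-fold, Sox11 3.15-fold and Foxn4, of amacrine and horizontal precursors, 2.99-fold. Neurod4 rose 4.91-fold, Neurod1 3.66-fold and Otx2, needed for photoreceptor and bipolar fate, 2.53-fold. Neurod2 was at 16.6 to 27.1 CPM at P3 and at 0.139 and 0.172 CPM at E15.

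Members of the Notch pathway, which holds cells in the progenitor or glial state, moved in both directions. Of 24 tested, 8 rose and 4 fell, against 17.1% and 14.8% of all genes tested. The share that fell is near that background. Among the transcriptional targets, Hey2 rose 13-fold and Heyl 2.12-fold, while Hey1 fell 1.76-fold and Hes1 1.98-fold. Hey2 was at 32.4, 29.9, 47.3 and 31.8 CPM at P3 and at 3.36 and 2.07 CPM at E15. Rbpj, the DNA-binding partner of cleaved Notch, was at 197 to 225 CPM at P3 and at 457 and 387 CPM at E15, so it fell while the receptors Notch1 and Notch2 rose and Notch3 fell. Without the P3 Brn3a AP/WT or the E15 Brn3b AP/WT library 4 members were called higher, and 5 without the P3 Brn3a AP/KO or the P3 Brn3b AP/WT library.

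In the hedgehog pathway, through which ganglion cells signal to progenitors, 3 of 13 genes rose and 3 fell. The background is 17.1% of all genes tested higher and 14.8% lower, so these small counts are not read as a result about the pathway. The ligand Shh was at 1.46 to 2.12 CPM at P3 and at 5.66 and 4.77 CPM at E15, a 2.93-fold fall. Gli1, a target gene and effector, was at 48.4, 18.6, 42.8 and 22.7 CPM at P3 and at 97.9 and 105 CPM at E15. At P3 Gli1 was lower in both AP/KO libraries than in both AP/WT libraries, at both loci. How many of all genes have this order was not counted, so it is not read as an effect of genotype. Ptch1, the main receptor and target, overlapped between stages at 145 to 200 CPM against 160 and 137 CPM (adjusted p = 0.608).

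Many cell cycle genes were lower at P3. Of 37 DNA replication genes tested, 30 fell and 1 rose, with a median log2 difference of -0.91. Of 36 mitosis genes 19 fell and none rose (median -0.67), also with DESeq2, where 24 fell; none was higher at an unadjusted p under 0.05. Mcm4, a subunit of the replicative helicase, was at 114, 60.4, 110 and 91.6 CPM at P3 and at 264 and 192 CPM at E15. Rrm2, of the enzyme that makes deoxynucleotides, was at 75.7 to 124 CPM at P3 and at 281 and 227 CPM at E15. All P3 libraries lay below both E15 libraries for both genes, by 2.43-fold and 2.38-fold. Without the E15 Brn3b AP/WT library only 6 replication genes and 1 mitosis gene were called lower, and Mcm4 missed the threshold at an adjusted p of 0.0536. Leaving out the P3 Brn3b AP/WT library gave 12 mitosis genes.

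Cenpa, the centromeric histone, fell 2.01-fold and Kif2c, a microtubule depolymerase with a window printed above, 1.97-fold. Ube2c, the other printed gene, drives the exit from mitosis and was at 36.4 to 48.4 CPM at P3 and at 98.7 and 63.3 CPM at E15. Kif2c and Ube2c missed the threshold without the E15 Brn3b AP/WT library, at adjusted p of 0.0647 and 0.0776. Mki67, the common proliferation marker, was at 655, 331, 498 and 495 CPM at P3 and at 608 and 541 CPM at E15, with overlapping stages (adjusted p = 0.5). The replication gene that rose was E2f1, a transcription factor of the G1/S transition, at 96.7 to 135 CPM against 80.4 and 85.7 CPM. Leaving out any library other than P3 Brn3a AP/KO left no replication gene called higher. Of 9 cell cycle inhibitors 4 rose, Cdkn1b, Cdkn2c, Cdkn1a and Rbl2, and Cdkn1c fell 3.05-fold. Without the P3 Brn3a AP/WT library 2 inhibitors were called lower.

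Within P3 the same groups separated 1 library from the other 3. The Brn3a AP/KO library was the lowest of the 4 for 34 of 37 replication genes and 35 of 36 mitosis genes, against 24.0% of all genes compared. Its values had a median of 67.1% and 73.4% of the P3 median of each gene. Between the E15 libraries, Brn3b AP/KO lay below Brn3b AP/WT for 35 of 36 mitosis genes, while it lay above for 49.6% of all genes compared. Each genotype has 1 library, so genotype and library cannot be told apart.

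**Figure D2:**
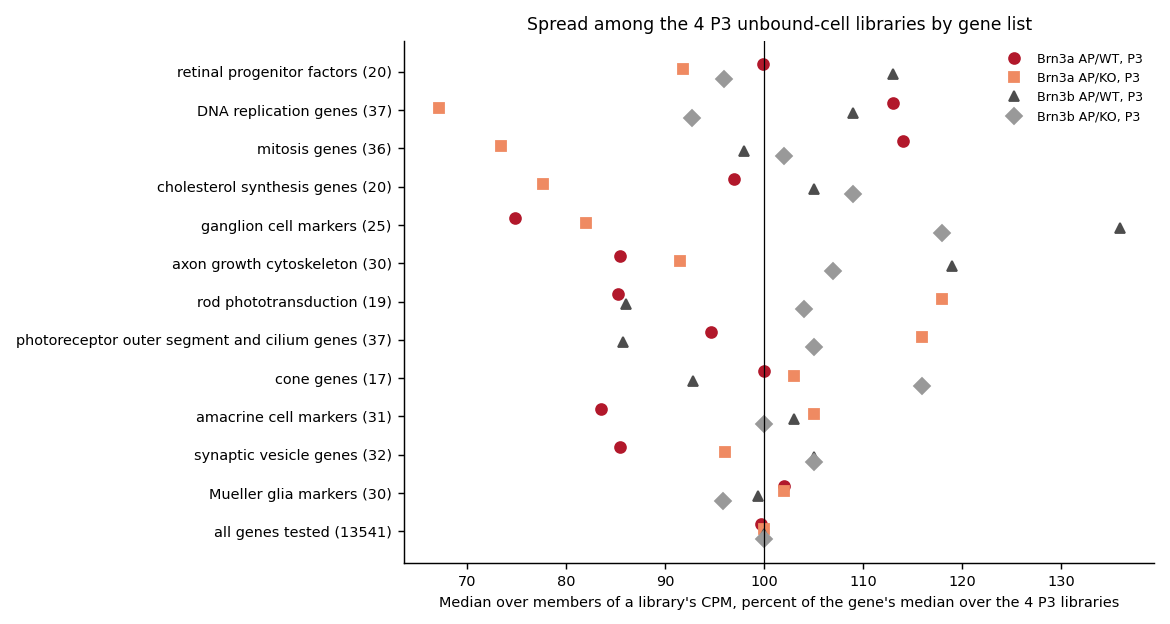
Median over the members of 12 gene lists, and over all genes tested, of the CPM of each P3 unbound library as percent of the median of the gene over the 4 P3 libraries (number of genes with a P3 median of at least 1 CPM in brackets). The Brn3a AP/KO library lies at 67.1% for replication and 73.4% for mitosis genes, and both Brn3b libraries lie above both Brn3a libraries for ganglion cell markers.

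Of 25 ganglion cell markers tested, 15 fell and 3 rose, with a median log2 difference of -1.30. Cntn2, an axonal adhesion protein, was at 8.26, 11.9, 10.97 and 8.43 CPM at P3 and at 153 and 206 CPM at E15. Isl1, a factor that acts with Brn3b, was at 21.5, 22.5, 34.4 and 32.4 CPM at P3 and at 164 and 205 CPM at E15. Both fell without overlap, Cntn2 18.1-fold (log2 -4.18, SE 0.19, adjusted p = 4.09e-05) and Isl1 6.65-fold (log2 -2.73, SE 0.21, adjusted p = 0.00012). Gap43, a growth cone protein, fell 4.18-fold and the intermediate filament Ina 4.16-fold. Rbpms, a marker of all ganglion cells, fell 2.13-fold, from 80.8 and 90.1 CPM at E15 to 26.1 to 63.7 CPM at P3.

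The members that rose were Thy1, Sncb and Nefh. Thy1, a surface protein of ganglion cells, was at 22.2, 18.2, 58.6 and 42.1 CPM at P3 and at 2.5 and 1.01 CPM at E15. Sncb, beta-synuclein, was at 37.2 to 59.0 CPM at P3 and at 1.58 and 2.24 CPM at E15, a 25.4-fold rise. Nefh, the heavy neurofilament, rose 3.77-fold. Nefl, the light one, was at 87.3 to 217 CPM at P3 and at 228 and 387 CPM at E15 and did not pass the test (adjusted p = 0.0717).

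Within P3 both Brn3b libraries lay above both Brn3a libraries for 20 of 25 ganglion cell markers and for 25 of 30 axon growth genes, against 21.5% of all genes compared. Thy1 shows this order, as do Stmn2 at 143, 165, 280 and 250 CPM and Nefm at 51.1, 58.8, 123 and 99.4 CPM. The E15 libraries are both Brn3b, so the stage differences of these genes are also differences in the mix of loci. On a common scale for the Brn3b libraries the 25 markers summed to 2024 and 2434 CPM at P3 unbound, 4040 and 5743 CPM at E15 unbound and 2658 to 17420 CPM in AP-positive libraries.

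Of 40 transcription factors of ganglion cells and their precursors, 20 fell and 5 rose, with a median log2 difference of -0.89. Dlx1 and Dlx2, homeodomain factors of ganglion and amacrine precursors, were at 3.07 to 4.8 CPM and 1.49 to 2.16 CPM at P3. At E15 Dlx1 was at 45.4 and 93.0 CPM and Dlx2 at 24.4 and 37.2 CPM. They fell 17.6-fold and 16.0-fold, and Irx2 15.6-fold, Onecut3 7.62-fold and Foxp1 3.53-fold. Irx5, which is also a bipolar factor, rose 5.09-fold and Jun, an immediate early gene, 2.34-fold. Eomes, of a ganglion cell subset, fell 1.85-fold, and Tbr1, of another, was at 1.52 to 2.59 CPM against 0.999 and 0.517 CPM (adjusted p = 0.0501). The number called higher was 3 without the P3 Brn3b AP/KO or the E15 Brn3b AP/WT library.

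Of 30 axon growth cytoskeleton genes, 14 fell and 2, Kif21a and Nefh, rose. With the Brn3b libraries only 8 fell and 1 rose, and with an allele term added 4 fell and 1 rose. Tuba1a, a tubulin of growing axons, was at 2527 to 3006 CPM at P3 and at 4530.5 and 6041 CPM at E15. Its call and that of Stmn1 held with the Brn3b libraries only but missed the threshold with the allele term (adjusted p = 0.0792 and 0.0625). Stmn1 fell 1.75-fold, Basp1 1.78-fold and Dcx, of migrating neurons, 2.65-fold. Tubb3 was at 265 to 312 CPM at P3 and at 465 and 947 CPM at E15, and for 28 of the 30 genes the E15 Brn3b AP/KO library lay above the E15 Brn3b AP/WT library, against 49.6% of all genes compared. Without that AP/KO library 4 members were called higher.

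Of 50 axon guidance genes, 15 rose and 12 fell, with a median log2 difference of 0.18. Robo3, a divergent receptor of the Slit family, was at 190, 147, 103 and 129 CPM at P3 and at 3.86 and 3.65 CPM at E15, a 37.8-fold rise (log2 5.24, SE 0.30, adjusted p = 5.11e-05). Sema5a and Sema5b, transmembrane semaphorins that keep retinal neurites in the inner retina, rose 3.63-fold and 5.73-fold, and the receptors Plxna2, Nrp1 and Nrp2 rose 3.38-fold, 1.93-fold and 3.08-fold. Ntn1, the netrin of the optic disc, was at 0.0277 to 0.921 CPM at P3 and at 5.44 and 9.62 CPM at E15. Its receptor Dcc fell 2.38-fold, and Ephb1, a receptor of uncrossed ganglion cell axons, 2.18-fold. Robo2 overlapped between stages at 234 to 281 CPM against 213 and 266 CPM. When the E15 Brn3b AP/KO library was omitted, 7 members were called lower.

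**Figure D3:**
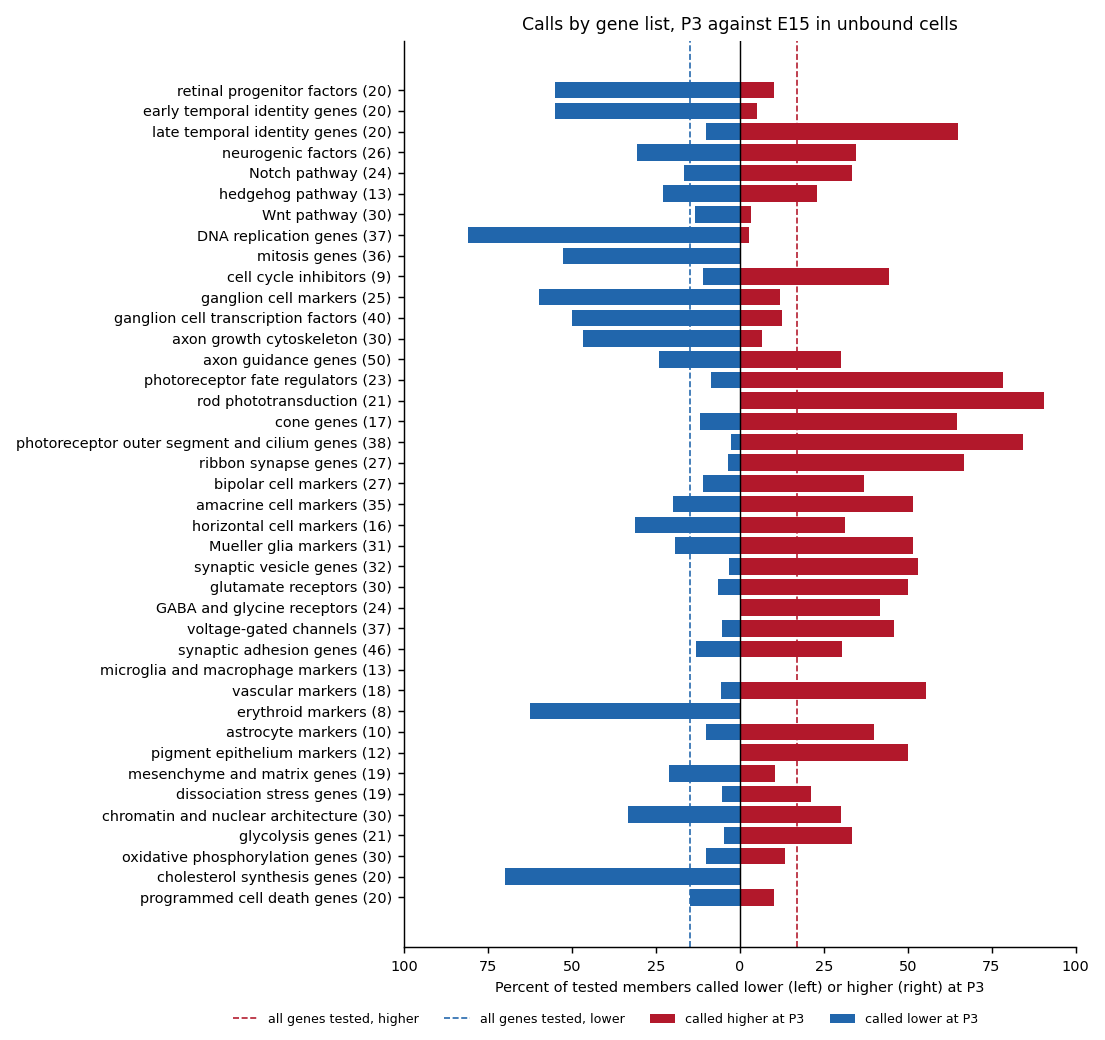
Percent of the tested members of each of 40 gene lists called lower (left, blue) or higher (right, red) at P3, with the number tested in brackets and dashed lines at 14.8% and 17.1% for all genes tested. Rod phototransduction has 19 of 21 members called higher, and DNA replication has 30 of 37 called lower.

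The lists of rod, outer segment and cone genes had the 3 highest medians of the 41 lists described here. Of 23 photoreceptor fate regulators, 18 rose and 2 fell, with a median log2 difference of 1.35. Crx, which drives photoreceptor genes, was at 758, 924, 771 and 808 CPM at P3 and at 177 and 181 CPM at E15. Nrl, the rod determinant, was at 353, 533, 312 and 403 CPM at P3 and at 3.72 and 4.86 CPM at E15. Every P3 library lay above both E15 libraries, by 4.55-fold for Crx (log2 2.185, SE 0.118, adjusted p = 4.67e-05) and by 93.4-fold for Nrl (log2 6.545, SE 0.307, adjusted p = 4.09e-05). Nr2e3, the rod nuclear receptor downstream of Nrl (chr9:59942771-59960659), was at 289 to 524 CPM at P3 and had 3 counts in total at E15, a ratio of 8780 with a 95% counting interval of 3000 to 42600. Samd7, a Polycomb-associated protein of rods (chr3:30746293-30767174), was at 150 to 225 CPM at P3 and at 0.0832 and 0.115 CPM at E15.

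The regulators that fell were Onecut1 and Thrb. Thrb, the thyroid hormone receptor of cones, was at 33.2, 32.9, 30.7 and 44.9 CPM at P3 and at 109 and 123 CPM at E15, a 3.26-fold fall. Prdm1, which favours photoreceptor over bipolar fate, rose 2.00-fold from 215 and 171 CPM. Rxrg, a nuclear receptor of cones, overlapped between stages at 17.5 to 22.4 CPM against 17.5 and 25.4 CPM (adjusted p = 0.65).

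Of 21 rod phototransduction genes tested, 19 rose and none fell, with none lower at an unadjusted p under 0.05 or by DESeq2. Their median log2 difference was 5.19 as fitted, and 4.25 with the 2 members at 0 at E15 set to their bounds. The subunits of the phosphodiesterase that hydrolyses cyclic GMP were Pde6b, at 83.2 to 163 CPM against 0 and 0.115 CPM, Pde6g, which rose 65.6-fold, and Pde6a, which rose 18.5-fold. Of the light-gated channel, Cngb1 was at 31.3 to 77.7 CPM against 0 and 0.201 CPM. Cnga1, the other subunit, whose promoter is printed above, was at 9.69, 19.6, 7.61 and 12.9 CPM and had no count at E15, so it was at least 295-fold higher, with the floor of 3 counts taken over both E15 libraries. The exchanger Slc24a1 also had no count at E15 and was at least 15.3-fold higher.

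Shutoff and calcium genes rose as well: Sag, rod arrestin, 115-fold, Rcvrn, recoverin, 109-fold, Grk1, the opsin kinase, 10.4-fold and Rgs9 3.46-fold. Gnat1, the rod transducin alpha subunit, was at 5.24 to 9.21 CPM at P3 and at 1.22 and 2.27 CPM at E15, a 4.34-fold rise. Gnb1, a G protein beta subunit that other cells use too, was at 820 to 988 CPM against 771 and 811 CPM and did not pass the test (adjusted p = 0.104). The Brn3a AP/KO library was the highest of the 4 P3 libraries for 10 of 19 rod genes and the Brn3b AP/KO library for 8. Among the 13541 genes compared, these counts were 3572 and 3040. Genotype and library cannot be told apart here.

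**Figure D4:**
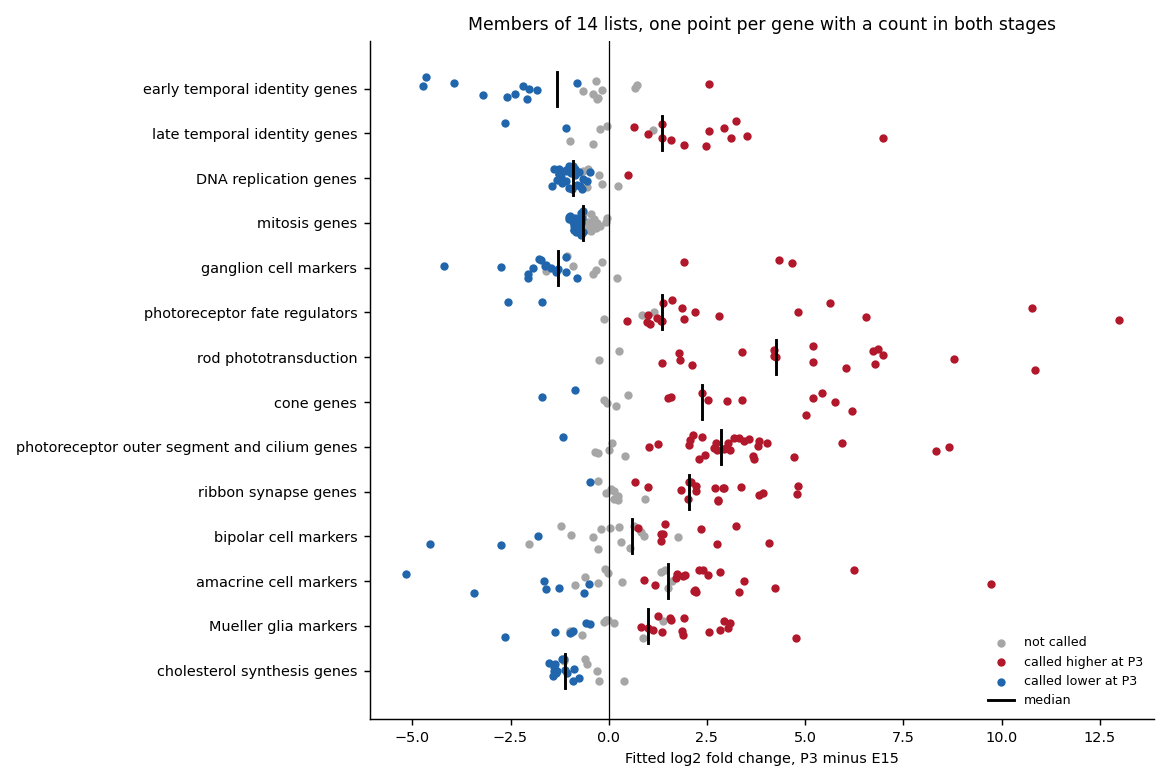
Fitted log2 fold change, P3 minus E15, for the tested members of 14 lists with a count in both stages, coloured by call, with a black bar at the median of the points drawn. The bar is at 4.25 for rod genes and at -0.67 for mitosis genes.

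Cone genes gave mixed results. Of 17 tested, 11 rose and 2 fell, with a median log2 difference of 2.38. Opn1sw, the short-wave opsin, was at 77.5, 92.0, 87.5 and 126 CPM at P3 and at 2.08 and 1.44 CPM at E15, a 54.3-fold rise (log2 5.76, SE 0.30, adjusted p = 4.42e-05). The transducin subunits Gnb3 and Gngt2 were already at 27.9 to 50.2 CPM at E15 and rose 5.21-fold and 5.78-fold. Arr3, cone arrestin, was at 3.77 to 6.21 CPM against 0 and 0.144 CPM. Gnat2, the cone transducin alpha subunit, overlapped between stages at 18.6 to 30.8 CPM against 28.4 and 18.8 CPM, as did the channel subunit Cnga3. Pde6c, the cone phosphodiesterase, was at 8.89 to 12.2 CPM at P3 and at 19.4 and 16.8 CPM at E15 and fell 1.83-fold, and Thrb was the other member that fell. Opn1mw, the middle-wave opsin, had no count at P3 and was too low to test. Omitting the E15 Brn3b AP/WT library gave 1 member called lower.

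Of 38 genes that build the outer segment and its cilium, 32 rose and 1 fell, with a median log2 difference of 3.01. Rp1, a microtubule protein of the axoneme (chr1:4290846-4409241), was at 311, 464, 309 and 366 CPM at P3 and at 0.888 and 0.891 CPM at E15. Prph2, which shapes the disc rims, was at 177, 314, 196 and 228 CPM at P3 and at 0.361 and 1.06 CPM at E15. These were rises of 406-fold and 321-fold with no overlap. Rbp3, a retinoid carrier between photoreceptors and pigment epithelium, was already at 64.0 and 78.6 CPM at E15 and rose 16.4-fold. Impg1, of the matrix between photoreceptors, had no count at E15 and was at least 217-fold higher. Crb2, a polarity gene that progenitors also use, fell 2.24-fold. The Brn3a AP/KO library was highest within P3 for 26 of 37 members, against 3572 of the 13541 genes compared.

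Of 27 ribbon synapse genes, 18 rose and 1 fell, with a median log2 difference of 2.04. Cacna1f, the calcium channel of the ribbon, was at 27.04, 24.5, 20.2 and 24.97 CPM at P3 and at 1.11 and 0.603 CPM at E15, a 28.1-fold rise. Slc17a7, a vesicular glutamate transporter, rose 27.8-fold, Cacna2d4 15.3-fold and Cplx3, a complexin of ribbon terminals, 6.88-fold. Ctbp2, whose locus encodes the ribbon protein RIBEYE as well as a widely used co-repressor, rose 1.58-fold. The scaffold genes Rims2, Erc2 and Pclo overlapped between stages. Unc13b fell 1.38-fold, a call lost when the P3 Brn3b AP/WT, the P3 Brn3b AP/KO or either E15 library was left out.

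Of 27 bipolar cell markers tested, 10 rose and 3 fell, with a median log2 difference of 0.65. Cabp5, a calcium-binding protein of bipolar cells, was at 7.70, 4.62, 5.49 and 7.99 CPM at P3 and at 0.361 and 0.402 CPM at E15. Prkca, of rod bipolar cells and others, rose 2.71-fold. Otx2, Nfib and Irx5 are counted in this list as well. Grm6, the glutamate receptor that defines ON bipolar cells, had no count at P3, Vsx1 and Scgn were too low to test, and Trpm1 overlapped at 2.10 to 5.39 CPM against 4.27 and 3.59 CPM.

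Of 35 amacrine cell genes tested, 18 rose and 7 fell, with a median log2 difference of 1.5. Gad1, which makes GABA, was at 79.9, 122, 118 and 103 CPM at P3 and at 8.54 and 10.8 CPM at E15, a 10.9-fold rise (log2 3.45, SE 0.23, adjusted p = 6.31e-05). Slc6a9, the glycine transporter of glycinergic amacrine cells, rose 9.93-fold, and the factors Tfap2b and Tfap2a 3.32-fold and 4.59-fold. C1ql2, a secreted synaptic organiser, was at 11.1 to 17.96 CPM at P3 and had 1 count at E15, a ratio of 1070 with a 95% counting interval of 191 to 42200. Gad2, the other GABA-making enzyme, overlapped between stages at 63.2 to 104 CPM against 85.0 and 78.6 CPM (adjusted p = 0.963). Ptf1a, the early determinant of amacrine and horizontal cells, fell 3.13-fold and Prdm13, an amacrine factor, 1.41-fold. The starburst amacrine genes Chat and Slc18a3 did not pass the test and stayed under 5 CPM in every library.

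Th, of dopaminergic amacrine cells, was at 0.334 to 0.475 CPM at P3 and at 0.527 and 29.02 CPM at E15. It was called lower, but only the E15 Brn3b AP/KO library lay above 1 CPM. Without that library its log2 difference went from -5.17 to -0.37 (adjusted p = 0.76). Sst, somatostatin, had its highest value, 19.0 CPM, in the same library, against 2.64 CPM in the other E15 library.

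Horizontal cell markers were divided, with 5 of 16 higher and 5 lower, against 17.1% and 14.8% of all genes tested. The rising members, among them Prox1 (2.09-fold) and Calb1 (3.29-fold), are also expressed by amacrine or other cells, and the falling ones included Onecut1, Onecut2, Foxn4 and Ptf1a. Lhx1, the factor most specific to horizontal cells, was at 1.96 to 6.11 CPM at P3 and at 3.74 and 9.65 CPM at E15 and did not pass the test (adjusted p = 0.347).

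Of 31 Mueller glia markers, 16 rose and 6 fell, with a median log2 difference of 1.00. Rlbp1, the retinaldehyde-binding protein of Mueller cells and pigment epithelium, was at 107, 181, 117 and 115 CPM at P3 and at 6.02 and 3.56 CPM at E15, a 27.1-fold rise (log2 4.76, SE 0.34, adjusted p = 9.09e-05). Kcnj10, a glial potassium channel, rose 8.20-fold, Apoe 8.49-fold and Fabp7, of radial glia, 7.07-fold. Slc1a3, the glial glutamate transporter, rose 1.76-fold. Glul, glutamine synthetase, overlapped between stages at 477 to 553 CPM against 582 and 515 CPM (adjusted p = 0.603), and Aqp4, of mature glia, was at 0.312 to 1.06 CPM against 0.388 and 0.172 CPM. The inhibitors Id1 and Id2 fell, as did Vim, an intermediate filament shared with progenitors, by 1.39-fold.

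Of 32 synaptic vesicle genes, 17 rose and 1 fell, with a median log2 difference of 0.96. Syp, synaptophysin, was at 362, 481, 344 and 421 CPM at P3 and at 94.2 and 122 CPM at E15, and Snap25, of the fusion machinery, rose 2.37-fold. Syt13 was the member that fell, by 3.45-fold, from 75.4 and 94.0 CPM at E15. Syn3, Syt4 and Unc13a overlapped between stages.

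Of 30 glutamate receptor genes 15 rose and 2 fell, of 24 GABA and glycine receptor genes 10 rose and none fell, and of 37 voltage-gated channel genes 17 rose and 2 fell. Of the GABA and glycine receptor genes 1 was lower at an unadjusted p under 0.05 and 0 by DESeq2. Grik3, a kainate receptor subunit, was at 217, 177, 138 and 148 CPM at P3 and at 12.6 and 25.1 CPM at E15. Grin2b, an NMDA receptor subunit, rose 6.54-fold, while Grin2c fell 6.40-fold from 6.49 and 7.44 CPM. Slc12a5, the chloride exporter that makes GABA inhibitory, was at 60.3, 82.0, 84.1 and 80.4 CPM at P3 and at 8.13 and 23.2 CPM at E15, a 4.90-fold rise. Its counterpart Slc12a2, the chloride importer, overlapped at 68.2 to 74.9 CPM against 81.4 and 70.8 CPM (adjusted p = 0.526). The number of lower members was 1 without the E15 Brn3b AP/KO library for glutamate receptors, and ranged from 1 to 4 for channels when 1 library was left out, with 4 without the E15 Brn3b AP/WT library.

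Of 46 synaptic adhesion genes, 14 were higher and 6 lower, with a median log2 difference of 0.06. Of all genes tested 17.1% were higher and 14.8% lower, so the share of lower members is near the background. Cadm2, an immunoglobulin adhesion protein, rose 3.81-fold, Dscaml1, which spaces retinal neurons, 5.91-fold and Pcdh10, a protocadherin, 4.83-fold. Cdh11, a cadherin also found outside neurons, fell 1.7-fold. Omitting the E15 Brn3b AP/WT library, 9 members were called higher and 12 lower.

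Markers of cells from outside the neural retina were read in the same libraries. None of 13 microglia and macrophage markers tested was called by edgeR's quasi-likelihood test, 3 were higher at an unadjusted p under 0.05, and DESeq2 called 4 higher. With the Brn3b libraries only edgeR called 5 of 12 higher, with an allele term added 1 of 12, and with all 18 retinal libraries 4 of 16. C1qb was at 0.208, 0.334, 2.31 and 1.66 CPM at P3 and at 0 and 0.144 CPM at E15, and Ctss at 0.0297, 0.395, 3.52 and 1.80 CPM against 0.0555 and 0.201 CPM. Both were higher in the Brn3b than in the Brn3a libraries of P3, and Lyz2 and Trem2 had no count at E15. Without the P3 Brn3a AP/WT library 2 members were called higher, with Ctss at an adjusted p of 0.0478 and Lyz2 at 0.0446.

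Erythroid genes were lower at P3, with 5 of 8 called. Hbb-bs, a beta-globin, was at 4.58, 15.3, 2.74 and 9.49 CPM at P3 and at 125 and 43.6 CPM at E15. Hbb-y, an embryonic globin, had no count at P3 and was at least 97.0-fold lower. Globin genes share sequence, so their separate estimates are uncertain. Without the E15 Brn3b AP/WT library 2 members were called, and Hbb-bs missed the threshold at an adjusted p of 0.0531. On the common scale of the Brn3b libraries the 8 markers summed to 8.12 and 21.44 CPM at P3 and to 84.61 and 243.9 CPM at E15. Their part in the other differences was not tested.

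Of 18 vascular markers 10 rose and 1 fell, with a median log2 difference of 2.05. Mcam, an adhesion protein of vessels, was at 115, 98.4, 112 and 97.7 CPM at P3 and at 8.52 and 7.99 CPM at E15, a 12.8-fold rise. Kdr, a receptor for vascular growth factor that retinal neurons and progenitors also express, rose 2.43-fold, and Cldn5, of endothelial junctions, was at 4.71 to 6.15 CPM against 2.08 and 5.52 CPM (adjusted p = 0.372). With E15 Brn3b AP/WT left out 6 vascular members were called higher, and none was called lower without the E15 Brn3b AP/KO library. Without the latter Cldn5 passed the test (adjusted p = 0.023).

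Of 12 pigment epithelium markers 6 rose and none fell, nor was any lower at an unadjusted p under 0.05 or by DESeq2. Pmel, a melanosome protein, was at 29.3, 17.1, 26.6 and 14.9 CPM at P3 and at 2.08 and 4.19 CPM at E15. Tyrp1, of melanin synthesis, rose 8.38-fold and Ttr, transthyretin, 9.30-fold. At P3 Pmel, Dct and Ttr were higher in both AP/WT than in both AP/KO libraries. This order was remarked on after the values were seen, and its share among all genes was not counted. Of 10 astrocyte markers 4 rose and 1 fell: Gfap was at 4.21 to 7.88 CPM at P3 and at 0 and 0.172 CPM at E15, and Pdgfra, of astrocyte precursors, rose 15.6-fold. The member that fell, Gja1, missed the threshold without the E15 Brn3b AP/WT library (adjusted p = 0.143), and 2 members were called lower without the P3 Brn3a AP/KO library. None of 3 lens genes was called by edgeR or DESeq2, and 1 was higher at an unadjusted p under 0.05. The part of these cells in the other differences was not tested.

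Genes with the largest folds outside the lists included regulators with no count at E15. Pax7, a paired-box factor known from muscle and midbrain (chr4:139737062-139833528), was at 18.4, 22.8, 12.2 and 13.5 CPM at P3, at least 395-fold higher. Tfap2e, a member of the AP-2 family like Tfap2a and Tfap2b, was at 9.84 to 12.2 CPM, at least 261-fold higher. Arid3c, a DNA-binding protein, was at 10.8 to 23.0 CPM and had 1 count at E15, a ratio of 1180 with a 95% counting interval of 212 to 46800. Entpd2, an ectonucleotidase that splits extracellular ATP, was at 14.9 to 21.5 CPM against 0 and 0.115 CPM.

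Some genes with large folds also differed widely within P3. Ftl2, a ferritin light chain gene with near-identical copies, was at 156 and 197 CPM in the Brn3a libraries of P3, at 1.34 and 2.41 CPM in the Brn3b libraries and at 0 at E15. Its call was lost (adjusted p 0.0742 to 0.174) when either Brn3a or either E15 library was left out. Klk1b22, one of a cluster of similar kallikreins, was at 0.119 CPM in the Brn3a AP/WT library and at 12.8 to 23.1 CPM in the other P3 libraries. Its call was lost without either E15 library (adjusted p = 0.112 without Brn3b AP/WT and 0.0708 without Brn3b AP/KO). Reads of such copies can be split by the estimation, so both genes are uncertain.

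Among the genes that fell most were signals and transporters. Fgf3, a growth factor on the same chromosome as Fgf15 (chr7:144838083-144844436 and chr7:144896532-144900953), was at 0.699 to 1.49 CPM at P3 and at 43.6 and 46.5 CPM at E15, a 41.1-fold fall. Slc38a4, an imprinted amino acid transporter, was at 0.194 to 0.312 CPM against 12.6 and 12.9 CPM. The neuropeptide gene Gal fell 19.1-fold, and Crhbp, which binds corticotropin-releasing hormone, 17.1-fold. Dio3, which inactivates thyroid hormone, was at 3.18, 0.395, 2.59 and 0.527 CPM at P3 and at 22.6 and 31.1 CPM at E15. At P3 Dio3 was lower in both AP/KO than in both AP/WT libraries, an order whose share among all genes was not counted. Ecel1, a neuronal endopeptidase, fell 16.1-fold but missed the threshold without the E15 Brn3b AP/KO library (adjusted p = 0.0668). Tagap, a GTPase-activating protein of lymphocytes, had 1 count in all P3 libraries and was at 12.9 and 9.68 CPM at E15, a ratio of 1530 with a 95% counting interval of 273 to 60400.

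The change between stages was then compared with that of the AP-positive fraction in the 12 Brn3b libraries, on a common scale. AP-positive names all that the beads held, not ganglion cells alone. Outer segment genes summed to 4916 to 8562 CPM in that fraction at P3, against 3902 and 4734 CPM unbound. At E15 these sums were 488.4 to 600.4 CPM AP-positive and 866.5 and 974.3 CPM unbound. Microglia and macrophage markers summed to 944.1 to 3697 CPM in the AP-positive fraction over both stages. The contrast is the log2 change from E15 to P3 in unbound cells minus the mean change in the 8 AP-positive libraries. Of 16495 genes tested, 147 (0.891%) were called, 61 with a positive and 86 with a negative contrast, and 3084 had an unadjusted p under 0.05. The contrast called 4 and 3 genes without the E15 Brn3b AP/WT unbound library, and without the E15 Brn3b AP/KO unbound library 957 and 416. Leaving out the unbound P3 library of Brn3b AP/WT gave 6 and 3, and that of Brn3b AP/KO 7 and 4. Leaving out 1 AP-positive library gave 17 to 95 positive and 18 to 147 negative contrasts, the lowest without replicate 2 of E15 Brn3b AP/KO and the highest without replicate 2 of E15 Brn3b AP/WT.

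Several photoreceptor genes had negative contrasts, that is, a larger rise in the AP-positive libraries. Opn1sw was at 85.7 and 119.6 CPM at P3 and at 2.09 and 1.41 CPM at E15 in unbound cells. In AP-positive cells it was at 143 to 270 CPM at P3 and at 0.174 to 0.474 CPM at E15. The contrast was -3.44 (SE 0.40, adjusted p = 0.0168). Pdc, phosducin, was at 364 to 742 CPM in AP-positive P3 libraries and at 3.56 to 5.88 CPM in AP-positive E15 libraries, against 290 and 364 CPM and 21.8 and 15.8 CPM unbound (contrast -2.735, SE 0.42, adjusted p = 0.0217). At E15 both genes were lower in every AP-positive library than in either unbound library. Negative contrasts were called for 6 of 17 cone genes (median -1.92), 5 of 23 photoreceptor fate regulators (median -0.98), 4 of 38 outer segment genes (median -1.17) and 1 of 21 rod genes (median -1.14). DESeq2 called 8, 6, 17 and 7 negative contrasts in these lists.

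Prdm13, the amacrine factor, differed in direction between the fractions. In unbound cells it went from 83.6 and 67.9 CPM at E15 to 50.2 and 49.5 CPM at P3. In AP-positive cells it was at 13.03 to 17.9 CPM at E15 and at 54.1 to 113 CPM at P3 (contrast -2.775, SE 0.29, adjusted p = 0.00947). Capn3, a calpain, was at 3.84 and 3.39 CPM at E15 and at 0.214 and 0.421 CPM at P3 in unbound cells, while the AP-positive libraries held 7.65 to 19.9 CPM at either stage (contrast -3.345, SE 0.40, adjusted p = 0.0172).

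**Figure D5:**
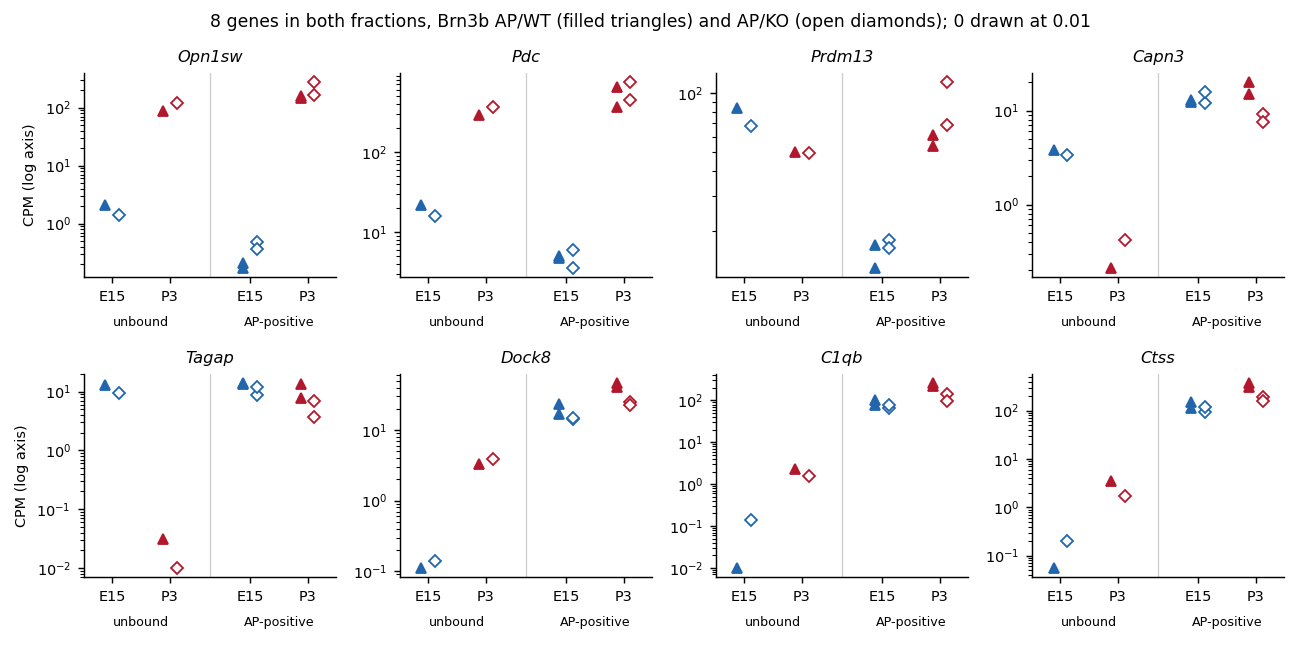
CPM (log axis, 0 drawn at 0.01) of 8 genes at E15 (blue) and P3 (red) in unbound and AP-positive Brn3b libraries, filled triangles for AP/WT and open diamonds for AP/KO. Opn1sw rises from 0.174 to 0.474 CPM to 143 to 270 CPM in AP-positive cells, and Ctss is at 3.45 CPM or less in unbound cells.

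Genes known from immune cells were among the largest contrasts in both directions. On the negative side, Tlr2, a receptor for bacterial lipoproteins, was at 4.96 and 3.64 CPM at E15 and at 1.47 and 1.79 CPM at P3 in unbound cells, and at 8.71 to 15.4 CPM at E15 and 17.5 to 43.7 CPM at P3 in AP-positive cells (contrast -2.59, SE 0.315, adjusted p = 0.0172). Wdfy4 and Tagap were negative too, and Tagap had 1 count in the unbound P3 libraries. On the positive side, Ctss, a protease of microglia, was at 92.0 to 376 CPM in AP-positive libraries of both stages and at 3.45 CPM or less in unbound ones (contrast 3.26, SE 0.60, adjusted p = 0.0438). Dock8, of immune cells, was at 0.111 and 0.141 CPM at E15 and at 3.36 and 3.95 CPM at P3 in unbound cells, and at 14.1 to 46.7 CPM in AP-positive cells (contrast 3.89, SE 0.32, adjusted p = 0.00273). Spint1, Evi2a, Il1b and Cd33 had no count in either unbound E15 library, so the size of their contrasts depends on the prior count and is not a bound. The 16 microglia and macrophage markers tested summed to 22.65 and 35.99 CPM at P3 and to 10.16 and 10.87 CPM at E15 in unbound cells, and to 944.1 to 3697 CPM in AP-positive cells. Positive contrasts were called for 2 of these 16 (median 1.37), and DESeq2 called 7 positive and 1 negative. The part of these cells in the AP-positive changes was not tested.

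Ganglion cell markers had no called contrast among 25, with a median of 0.07 and 9 at an unadjusted p under 0.05. DNA replication genes had none either (median -0.16, 2 at an unadjusted p under 0.05), nor had mitosis genes (median -0.03, 0 at that p). DESeq2 called 1 positive and 2 negative contrasts among the ganglion cell markers and none in the other two lists. A contrast that misses the threshold does not show that the fractions changed alike.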

How the data were processed

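The unbound retinal cells of 6 libraries, 4 at P3 and 2 at E15, were compared with each other, and the 4 of them from Brn3b retinas with 8 AP-positive libraries. Libraries were made from mRNA with a strand-specific kit, per the labels' protocols. The deposited values are estimated counts per transcript, made with Trimmomatic 0.32, Bowtie2 2.2.1 and eXpress 1.3.1 on GRCm38.p3, per the submitters' processing notes. A deposited GC percent per transcript was not used. Whether the counting used strand is not given in the sources used here, so genes that overlap, and genes with near-identical copies, are uncertain.

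The 88198 transcripts were summed to 30735 genes and rounded to whole numbers. Genes were filtered with filterByExpr (minimum count 10), scaled by TMM and tested with edgeR 4.0.16 (quasi-likelihood, R 4.3.3), with Benjamini-Hochberg adjustment over all genes and a threshold of 0.05. The fit had 4 residual degrees of freedom and a biological coefficient of variation of 27.8% (6 and 27.9% for the contrast of fractions). CPM uses TMM-scaled library sizes. Bounds take a floor of 3 counts over a stage, and intervals at 95% are exact binomial and cover counting error only. The edgeR fit was also run on simulated counts that varied less than the data and had a smaller share of changed genes. That run checks the code and not the error rates in these data. DESeq2 1.42.0, other scalings and filters, an allele term and the omission of each library were alternatives.

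Genes named were the Pou4f family, the 15 higher and 15 lower called genes with the largest fold (mean of at least 10 CPM, stages not overlapping, unnamed genes passed over), up to 6 members of each list by adjusted p with the member of highest mean that was not called, and the 8 largest called contrasts in each direction among genes whose mean reached 10 CPM in 1 fraction and stage. Other genes named in the text were chosen after their values were seen. The members, lists and tests were chosen with earlier results of these data known, so the counts over lists are descriptions. Of 943 distinct list genes 904 were tested, and 3 list entries were not found in the table. Promoters are from RefSeq for GRCm38.p6, matched by symbol. Some genes named by this rule are not reported here. The 9 brain libraries were not used, and the Brn3a AP-positive libraries entered only an alternative fit over all 18 retinal libraries.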

Additional observations from a re-analysis of the deposited data

Results flagged for a closer look

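In the 4 P3 libraries, 23 of the 270 named genes looked at had 1 library far from the other 3 by Dixon's criterion for 4 samples, and chance alone gives about 1 gene in 20. The Brn3a AP/KO library stood apart for 11 of them, at 1.58 CPM for Crabp2, 197 for Rbpj, 100.49 for Gas1, 18.6 for Rfc4, 28.8 for Pold1, 46.7 for Kif4, 64.6 for Sept4, 181 for Rlbp1, 269 for Kdm6b, 63.0 for Lss and 41.7 for Birc5. The Brn3a AP/WT library did so for 6, at 199.8 CPM for Ptch1, 819.7 for Gnb1, 2.76 for Gabrg1, 31.6 for Glra2, 60.3 for Slc12a5 and 21.4 for Dnmt3b. The Brn3b AP/WT library did so at 325 CPM for Hmga1, 47.3 for Hey2 and 0.0312 for Tagap, and the Brn3b AP/KO library at 80.9 for Sema5b, 497 for Aldoa and 218 for Xiap.

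The 16 genes named from the contrast of fractions were taken because its test called them, so that call is not separate support. Positive log2 contrasts were 8.82 for Spint1, 6.66 for Evi2a, 6.33 for Il1b, 5.64 for Cd33, 3.89 for Dock8, 3.59 for C1qb, 3.55 for Cyth4 and 3.26 for Ctss. Spint1, Evi2a, Il1b and Cd33 had no count in either unbound E15 library, so their sizes depend on the prior count. Negative ones were -8.61 for Tagap, -3.77 for Myo5b, -3.44 for Opn1sw, -3.345 for Capn3, -2.775 for Prdm13, -2.735 for Pdc, -2.66 for Wdfy4 and -2.59 for Tlr2. Myo5b, a myosin motor, was at 1.03 and 1.10 CPM at E15 and at 2.17 and 5.82 CPM at P3 in unbound cells, and at 0.209 to 0.758 CPM at E15 and 9.31 to 67.8 CPM at P3 in AP-positive cells.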

How the results depend on the processing

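The stage comparison, 2647 genes higher and 2301 lower, gave 1410 and 1005 with the Brn3b libraries only and 1189 and 725 when an allele term was added to these. Leaving out 1 library gave 1735 to 3134 higher and 1275 to 2431 lower, the lowest without E15 Brn3b AP/WT and the highest higher count without E15 Brn3b AP/KO. DESeq2, 3 other scalings, 2 other filters, all 18 retinal libraries and an allele term over the 6 libraries stayed within 1.5 times, and DESeq2 called 4937 of the 4948 genes. Of the counts of members called higher or lower in the 41 lists, 20 fell by over 1.5 times with the Brn3b libraries only and 28 with the allele term. No named gene called here changed sign under any alternative run. The direction with more calls turned under at least 1 alternative for synaptic adhesion, axon guidance, neurogenic, chromatin and oxidative phosphorylation genes. Brn3b AP/WT and AP/KO each have 1 unbound library per stage, so the fit with the allele term pairs the stages by genotype, while replicate numbers were not used as a block there.

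The contrast of fractions, 61 positive and 86 negative, gave 536 and 629 with all 18 retinal libraries, 286 and 200 with no filter, 551 and 670 with DESeq2, and 41 and 73 with the replicate number as a block (replicate block). Replicate numbers share only a name here, with correlations of deviations from -0.22 to 0.369. Leaving out 1 library gave 4 to 957 positive and 3 to 416 negative contrasts. Each Brn3b genotype has 1 unbound library per stage, and the cause of these shifts was not tested.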

Other observations

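Genes of cholesterol synthesis, which every growing cell uses, were lower at P3: 14 of 20 fell and none rose by edgeR's test, and none was higher at an unadjusted p under 0.05 or by DESeq2. Sqle, squalene epoxidase, fell 2.57-fold and Hsd17b7 2.68-fold. The Brn3a AP/KO library was the lowest of the P3 libraries for 18 of the 20, against 24.0% of all genes compared. With E15 Brn3b AP/KO left out 1 member was called higher.

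For both lists of this paragraph the background is 17.1% of all genes tested higher and 14.8% lower. Of 21 glycolysis genes 7 rose and 1 fell. Eno2, the neuronal enolase, was at 67.8 to 84.7 CPM at P3 and at 15.2 and 20.1 CPM at E15, and Aldoc, aldolase C, rose 11.4-fold. Hk1 missed the threshold without E15 Brn3b AP/WT (adjusted p = 0.116 in edgeR's test). Of 30 oxidative phosphorylation genes 4 rose and 3 fell, with 0 to 5 called lower when 1 library was left out.

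Of 30 chromatin genes 9 rose and 10 fell, with 4 lower without E15 Brn3b AP/WT. Tet3 and Tet2, which oxidise methylated cytosine, rose 2.57-fold and 2.11-fold, and Dnmt3b, a DNA methyltransferase, fell 2.26-fold. Of 30 Wnt pathway genes 1 rose and 4 fell, against 17.1% and 14.8% of all genes tested. Axin2, a target of the pathway, rose 2.64-fold, while Sfrp1, an antagonist like Sfrp2, fell 4.74-fold.

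Over all genes tested 17.1% rose and 14.8% fell, the background for the lists of this paragraph. Of 20 cell death genes 2 rose and 3 fell, among them the protective gene Bcl2 by 2.69-fold, which is near that background. Of 19 dissociation stress genes 4 rose and 1 fell, and 2 were called lower without E15 Brn3b AP/KO. Nr4a1, an immediate early gene, was at 44.5 to 65.9 CPM at P3 and at 12.9 and 9.80 CPM at E15. Egr1, another, was at 371, 564, 194 and 260 CPM at P3 and at 188 and 128 CPM at E15 and missed the threshold (adjusted p = 0.0649 in edgeR's test). Whether handling differed between stages was not tested. Of 19 mesenchyme and matrix genes 2 rose and 4 fell, with Col2a1, a collagen of the vitreous, 5.14-fold higher and Col1a2 6.67-fold lower, and 4 rose without E15 Brn3b AP/KO.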
